A study of Arabidopsis thaliana with 30 samples.

Results

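The nuclear genes for subunits of photosystem I and photosystem II were described by the open chromatin at and around them in Arabidopsis thaliana. The set holds 33 of the 27444 protein-coding genes on the 5 chromosomes. It comprises the PSA, PSB and LHCA genes and the LHCB4, LHCB5 and LHCB6 genes, each taken with 1 kb on either side. Of the members, 18 encode photosystem I proteins (12 core subunits and 6 antenna proteins) and 15 encode photosystem II proteins (5 minor antenna proteins, 6 of the oxygen-evolving complex including PSBR, and 4 others). The peaks overlapping these genes numbered 1586 of 734458 over all 30 libraries. They fell on 72 of the 42611 elements of the genome, where an element is a window reaching 150 bp to either side of a peak summit that was carried by both libraries of at least 1 group.

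Photosystem II uses light to take electrons from water at the oxygen-evolving complex, and photosystem I uses light again to pass them on to ferredoxin and NADPH. Each has a core and an antenna of chlorophyll-binding proteins, the LHCA proteins at photosystem I and the LHCB proteins at photosystem II. Their core reaction-centre proteins are made in the chloroplast, while the genes described here lie in the nucleus and are known to be transcribed in green, lit tissue and little in roots. Open chromatin at a promoter is the usual state of a gene that can be transcribed, but a peak does not measure the transcript.

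Accessible chromatin was measured by ATAC-seq, which uses Tn5 transposase to cut and tag DNA of isolated nuclei wherever it is not packed away. The 30 libraries fell into 15 groups of 2. Wild-type Col-0 was sampled as root and shoot of plants 2 weeks old and as stem of plants 4 weeks old, and 12 mutant genotypes were sampled as shoot at 2 weeks. The single mutants were ros1-4, which lacks the DNA demethylase ROS1, met1-9, which lacks the maintenance DNA methyltransferase MET1, nrpd1-3, which lacks the large subunit of RNA polymerase IV, gcn5, which lacks a histone acetyltransferase, hda6, which lacks a histone deacetylase, and sdg2-4, which lacks a histone H3K4 methyltransferase. The labels also gave nrpd1-3 ros1-4, gcn5 ros1-4, hda6 ros1-4 and sdg2-4 ros1-4 double mutants, rdd-2, which lacks ROS1, DML2 and DML3, and drdd, which lacks DME as well. The labels name no allele for gcn5 and hda6 and do not say whether replicates were separate plants, so the spread between replicates may be technical. The shoot was a whole organ of many cell types, and a lower peak could come from fewer open cells or less open chromatin per cell, which cannot be told apart here.

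The lists held 17315 peaks in stem replicate 1 to 38392 in met1-9 replicate 1. They give no read counts, so depth is unknown and no interval could be set on a single value. The median fold of the weakest peaks, those with a −log10 q under 3, ran from 1.64 in gcn5 replicate 2 to 2.48 in sdg2-4 replicate 2, so weaker peaks entered some lists than others. Peak names of the met1-9 libraries say leaf where the labels say shoot, and those of stem contain words for merged or added data. The peak names also carry running numbers, in other ranges for root, stem, met1-9 and the gcn5, hda6 and sdg2-4 single and double mutants than for Col-0 shoot, and no source used here says what these numbers stand for. Of 11 listed root marker genes, 10 had a peak in both root libraries, 5 in both shoot libraries and 3 in both stem libraries. Of 11 stem wall marker genes, 8 had a peak in both stem libraries, 5 in both shoot libraries and 6 in both root libraries. Of 9 leaf marker genes, 7 had a peak in both shoot libraries and 8 in both root libraries, so that list did not mark shoot from root.

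In aerial tissue each of the 33 genes had a peak. All 33 had at least 1 in every one of the 4 Col-0 stem and shoot libraries and the 24 mutant shoot libraries, against 61.5% to 85.8% of all protein-coding genes. In root, 29 and 27 members had a peak, which is 87.9% and 81.8%, against 77.4% and 75.8% of all genes. The fold that follows is the authors' own value for each peak, the pileup at the summit over the local background on a linear scale, and the highest fold at a gene is that of its strongest peak within 1 kb. Peaks of separately called lists are not calibrated to each other, so folds are described and ranked, and no test was made on them.

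Within each list, photosystem genes had stronger peaks than the median gene in aerial tissue and less so in root. Among genes with a peak, the median percentile of a gene's strongest peak by −log10 q was 86.5 and 84.1 for the members in the 2 Col-0 shoot libraries, against 64.8 and 66.1 for all genes. In stem it was 77 and 83.3 against 62.3 and 64. In root it was 73.9 and 65.5, over the 29 and 27 members that had a peak, against 67.6 and 66.5 for all genes, so 1 root library lay above the genome and the other at about its level. Over the 24 mutant shoot libraries the members' median ran from 81.2 in hda6 replicate 2 to 92.9 in ros1-4 replicate 2.

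**Figure D1:**
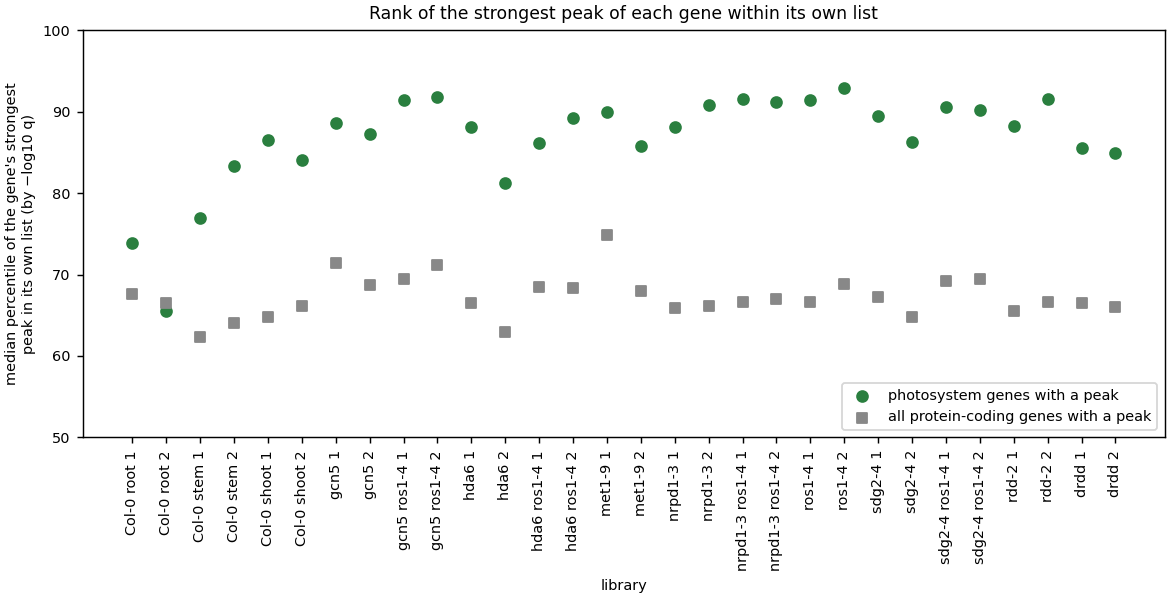
Median within-list percentile of the strongest peak (by −log10 q, vertical axis from 50 to 100) over photosystem genes with a peak (green circles) and all protein-coding genes with a peak (grey squares) in each of the 30 libraries. The members lie above all genes in every aerial library, and in root they lie at 73.9 and 65.5 against 67.6 and 66.5.

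The strength of the strongest peak differed widely between members. By the mean of the 2 Col-0 shoot libraries the highest was PSAD1 (AT4G02770), a stromal photosystem I subunit at the ferredoxin docking site, at 15.7 and 15.3-fold. PSBQ1 (AT4G21280), an extrinsic protein of the oxygen-evolving complex, stood at 13.7 and 13.6-fold, and PSBR (AT1G79040), a small protein linked to that complex, at 11.8 and 12.5-fold. These 3 were also high in stem, between 8.91 and 11.9-fold, and in root, between 7.5 and 12.1-fold. The lowest were LHCB4.3 (AT2G40100), a minor antenna protein, at 4.33 and 4.19-fold, PSAE1 (AT4G28750), another stromal photosystem I subunit, at 4.29 and 5.41-fold, and LHCA2 (AT3G61470), a photosystem I antenna protein, at 5.04 and 5.06-fold. In the 24 mutant shoot libraries PSAD1 ran from 10.8 to 21-fold with a median of 17.6, and LHCB4.3 from 3.44 to 7.06-fold with a median of 5.31. The ranges of PSAD1 and LHCB4.3 did not meet, while that of PSAE1, from 4.78 to 10.9-fold, met that of PSAD1.

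**Figure D2:**
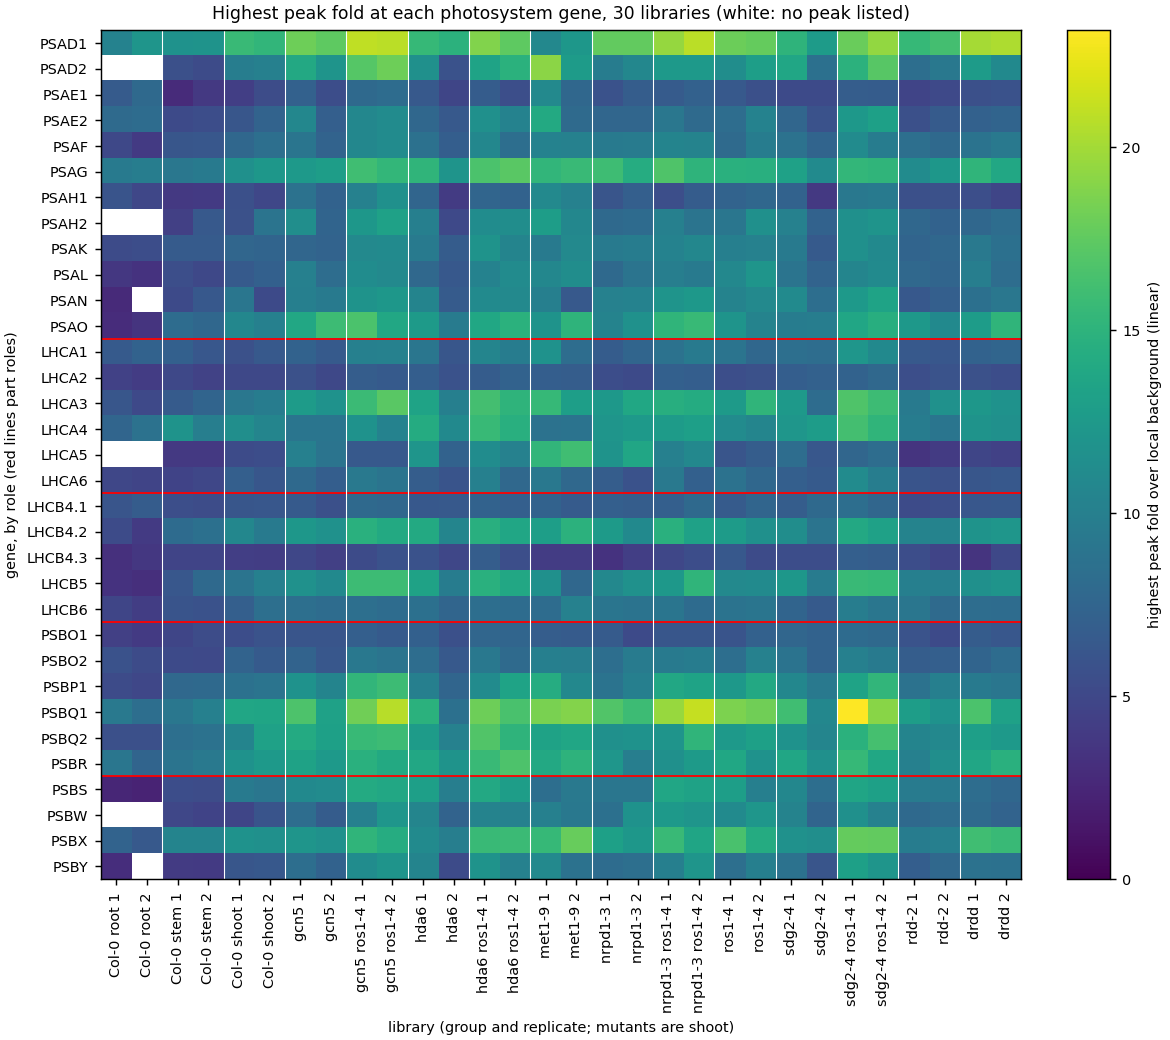
Highest peak fold over local background (linear colour scale from 0) at each of the 33 photosystem genes (rows, by role) in the 30 libraries (columns, 2 per group). White cells mark genes with no listed peak and occur in root only, where 29 and 27 of the 33 genes had a peak.

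The question of organ was addressed by setting root against shoot. Of the 27 members with a peak in all 4 libraries, the highest fold was below shoot in both root libraries at 22, above it in both at 3, and overlapping at 2. Among all 17335 protein-coding genes with such peaks, 50.7% were below and 16.8% above. The 3 members that were higher in root were all photosystem I genes: PSAE1, PSAE2 (AT2G20260) and LHCA1 (AT3G54890). At PSAE2 the root values came from an element inside the gene, with 8.04 and 8.2-fold in root and 6.19 and 6.23-fold in shoot. Its element at chr2:8736507-8736807, within 200 bp outside the gene and nearer to another gene, had 4.22 and 4.98-fold in root. In shoot that element had 5.53 and 7.39-fold, so there root lay below shoot. At LHCA1 they came from a peak of 6.53 and 7.28-fold over 200 bp outside the gene, while the element inside the gene near its end had 2.48 and 2.35-fold in root, 7.07 and 6.29-fold in stem and 5.79 and 6.44-fold in shoot, so there root lay below shoot. By photosystem, 10 of 14 photosystem I genes and 12 of 13 photosystem II genes were below. The difference between the photosystems was not tested.

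A gene can also lose its peaks altogether. PSAD2 (AT1G03130), the second gene for the stromal subunit PSAD, had a highest fold of 9.87 and 10.1 in shoot and 5.66 and 5.29 in stem, and no peak in either root library. PSAH2 (AT1G52230), for a small photosystem I subunit near the docking site of the mobile antenna, had 5.79 and 8.97 in shoot, 4.43 and 6.44 in stem and none in root. LHCA5 (AT1G45474), a minor photosystem I antenna protein, had 5.27 and 5.49 in shoot, 3.81 and 3.84 in stem and none in root. PSBW (AT2G30570), a small photosystem II subunit, had 4.87 and 6.04 in shoot, 4.96 and 4.71 in stem and none in root. These 4 of 33 genes, 12.1% of the set, compare with 2.91% of the 18329 protein-coding genes with a peak in both shoot libraries. The count followed the window: it was 9 (background 5.11%) over the gene body alone, 2 (2%) with 2 kb on either side, and 10 (6.49%) with all lists cut to the same length. PSAN (AT5G64040), a photosystem I subunit of the thylakoid lumen, kept a weak peak of 2.73-fold in root replicate 1 and had none in replicate 2, where shoot had 9.08 and 5.17-fold. PSBY (AT1G67740), a small photosystem II protein, had 6.22 and 6.4-fold in shoot at an element inside the gene that neither root library carried. Its only root peak, of 3.02-fold in replicate 1, lay at another element, inside the neighbouring gene KCR1. In stem, no member lacked a peak, while 5.67% of genes carried in both shoot libraries did. From stem to root, 4 of 33 members lost all peaks against 1.83% of 16587 genes, and they were again PSAD2, PSAH2, LHCA5 and PSBW.

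**Figure D3:**
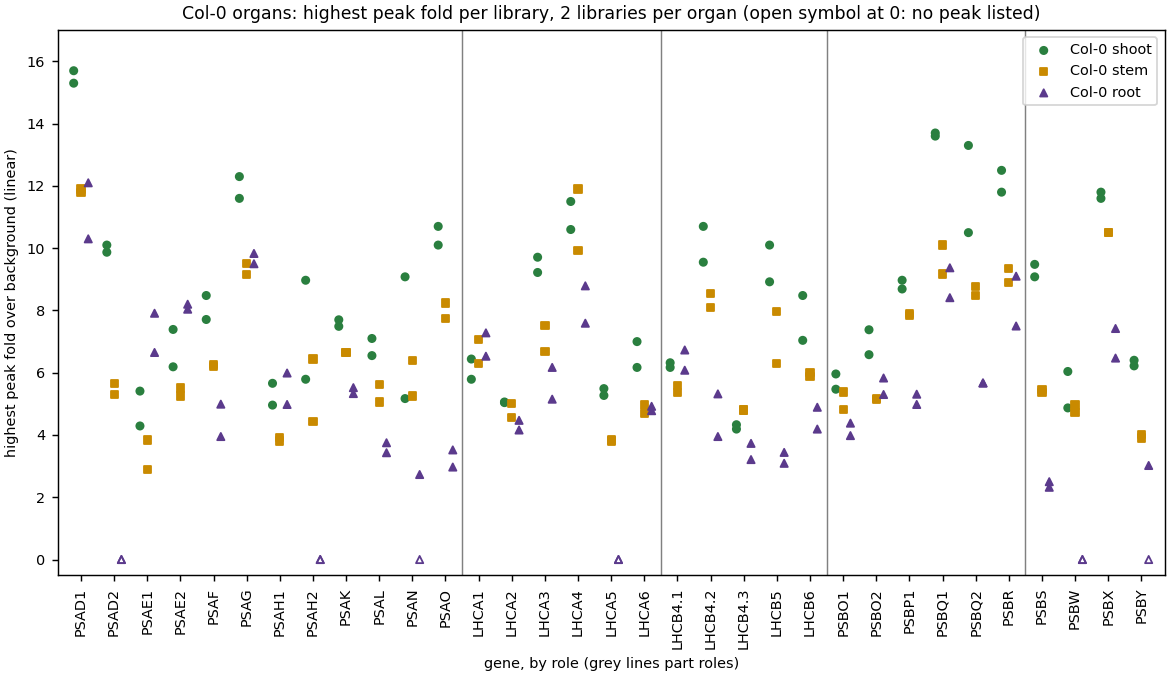
Highest peak fold over background (linear axis) at each photosystem gene in 2 Col-0 shoot (circles), 2 stem (squares) and 2 root (triangles) libraries, in role order. Open triangles at 0 mark no listed peak, as at PSAD2, PSAH2, LHCA5 and PSBW in both root libraries.

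A lost element is one found in both libraries of the reference group and in neither of the test group, and a gained element is the opposite. Root lost 10 of the 47 member elements that both shoot libraries carried, 21.3%, against 9.57% of the 19078 such elements within 1 kb of any protein-coding gene. Photosystem I genes lost 6 of 25 and photosystem II genes 4 of 22. A comparison of 2 libraries with 2 can reach no exact permutation p below 0.333, so no p-value is given for these counts. The lost elements lay at 10 genes, 1 element each. The member and background shares were 34.9% and 14.7% with lists of equal length and 25% and 13.8% when a summit had to lie inside the element. The losses lay at the PSAD2, PSAH2, LHCA5 and PSBW genes described above, and at PSAE1, LHCA2, LHCA3, LHCB5, PSBS and PSBY.

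At PSBS (AT1G44575), which carries the protein that triggers the quenching of excess light, the lost element at chr1:16871428-16871728 inside the gene had 9.48 and 9.08-fold in shoot and 5.46 and 5.37-fold in stem. The highest remaining peak at PSBS in root was 2.5 and 2.32-fold, the weakest member value in both root libraries. At LHCA3 (AT1G61520), a photosystem I antenna gene, the element at chr1:22699791-22700091 had 9.22 and 9.71-fold in shoot and 6.68 and 7.52-fold in stem and was absent in root, where another peak of 6.17 and 5.15-fold remained. The shoot and root folds at LHCA3 did not overlap. At LHCA2 the element at chr3:22744311-22744611 lay over 200 bp outside the gene and was weak, with 3.73 and 4.02-fold in shoot and 3.03 and 2.63-fold in stem.

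LHCB5 (AT4G10340), which carries the minor antenna protein CP26, lost an element at chr4:6410249-6410549, over 200 bp from the gene, in root and stem. It had 3.16 and 3.23-fold in the 2 shoot libraries. The strongest peak of LHCB5 was 8.92 and 10.1-fold in shoot, 6.3 and 7.97-fold in stem and 3.44 and 3.09-fold in root, and these 3 groups did not overlap. PSAE1 lost an element at chr4:14203862-14204162, which lies inside PSAE1 and inside an overlapping gene, in root and stem, where shoot had 4.29 and 5.41-fold. It retained the element at chr4:14205048-14205348, over 200 bp outside the gene and nearer to another gene, at 6.65 and 7.91-fold in root, 2.88 and 3.84-fold in stem, and 2.79-fold in shoot replicate 2 only. The strongest peak at PSAE1 in root thus belonged to a different element from the strongest in shoot.

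Root gained 9 of the 16 member elements that neither shoot library carried, at 7 genes. The share was 56.2%, against 36.9% of 11781 elements near genes. An element absent from shoot was kept only if both libraries of another group carried it, for members and background alike. The gained LHCA4, LHCB4.3 and PSAL elements and the PSBO1 element at chr5:26570875-26571175 were kept through root alone. Their gain was thus fixed by that rule, and the share is given as a description only. Counting only summits inside the element gave 31.8% against 26.3%, and only 2 gained elements lay over a gene body. PSBQ2 (AT4G05180), an extrinsic protein of the oxygen-evolving complex like PSBQ1, had 2 such elements under 1 peak of 5.67 and 5.67-fold in root and of 3.73 and 3.85-fold in stem. PSBO2 (AT3G50820), for the manganese-stabilising protein, had 5.83 and 5.3-fold in root and 5.18 and 5.13-fold in stem at an element nearer to a neighbouring gene. PSBO1 (AT5G66570), for the same protein, had 2 elements under a peak of 3.43 and 3.46-fold in root and none in stem. LHCA4 (AT3G47470), a photosystem I antenna gene, gained an element inside the gene at chr3:17494337-17494637 of 4.97 and 5.51-fold, which no stem, shoot or mutant library carried. PSAL (AT4G12800), the subunit that docks the mobile antenna, gained 1 of 3.59 and 3.43-fold at chr4:7522011-7522311, which stem replicate 2 also carried at 3.01-fold. At PSBR the gained element was covered by a wide peak of 9.1 and 7.5-fold in root, and LHCB4.3 gained 1 of 2.84 and 3.17-fold inside another gene. At the oxygen-evolving complex genes 0 of 7 elements were lost and 6 of 8 gained, and as these 8 are among the 16 elements absent from shoot and 4 of the 6 lie in pairs under 1 peak, neither count is read as particular to these genes.

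By elements lost, stem stood closer to shoot than root did. It lost 3 of 47 member elements, 6.38%, at PSAE1, LHCB4.3 and LHCB5, against 11.2% of such elements near genes. It gained 5 of 16, 31.2%, at PSBO2, PSBQ2, PSBR and PSBY, against 12.6%. The 2 PSBQ2 elements lay under 1 peak, and the PSBR element was not called when a summit had to lie inside it. Counting only summits inside the element gave 13.6% against 7.77%. All 5 gained elements lay at photosystem II genes, where 12 of the 16 elements absent from shoot lay. Without shoot replicate 1 or without shoot replicate 2 the lost count was 5, and without shoot replicate 2 the gained count was 9. The highest fold was below shoot in both stem libraries at 27 of 33 members, 81.8%, against 64.1% of 15615 genes with a peak in all 4 libraries. It was above at 1, LHCB4.3, against 8.13%. In root it was below at 22 of the 27 members with a peak in all 4 libraries, 81.5%, against 50.7% of genes. Members with a missing root peak were left out of that share. The root and stem shares are thus not on a like base and are not ranked. LHCB4.3 had 4.8 and 4.8-fold in stem, 4.33 and 4.19-fold in shoot and 3.21 and 3.73-fold in root. The stem plants were older, and age cannot be told apart from organ. Root against stem gave 10 of 52 elements lost at 8 members, 19.2%, against 7.35% near genes, and 6 of 17 gained at 4 members, against 34.9%. The 2 lost LHCA3 elements lay under 1 stem peak, and the 2 gained PSBO1 elements under 1 root peak. With a summit required inside the element the lost share was 22.7% against 9.61%.

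**Figure D4:**
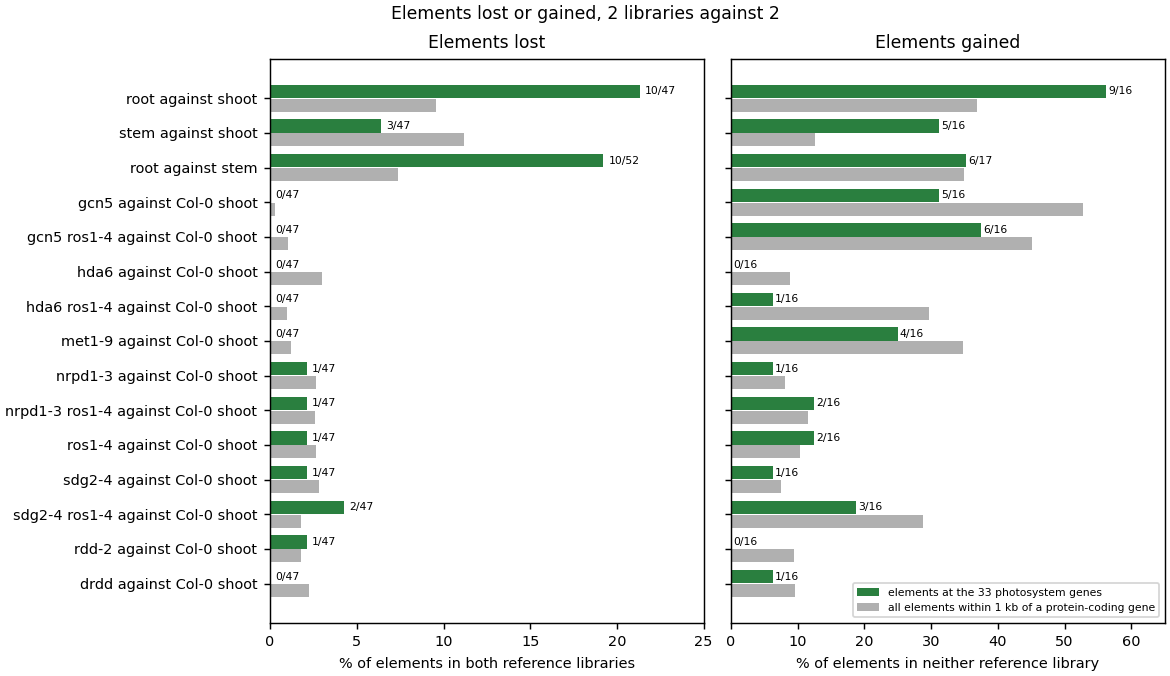
Percentage of elements lost (left, of those in both reference libraries) or gained (right, of those in neither) at photosystem genes (green, with counts) and at all elements within 1 kb of a protein-coding gene (grey), for 3 organ and 12 genotype comparisons. In root against shoot the members lost 10 of 47 against a background of 9.57%. The genotype comparisons lost 0 to 2 of 47, against backgrounds of 0.288% to 3.01%.

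Genes with a close copy could be set side by side, though reads of near-identical stretches could be shared between copies. PSAD1 kept 10.3 and 12.1-fold in root where PSAD2 had no peak. PSAE2 had highest folds of 8.04 and 8.2 in root, 5.25 and 5.51 in stem and 6.19 and 7.39 in shoot, and lost no element. Its shoot value of 7.39 lay at the element outside the gene, where root was below shoot. PSAH1 (AT3G16140) had 5.99 and 4.98-fold in root, 3.81 and 3.91-fold in stem and 5.66 and 4.96-fold in shoot, while PSAH2 had no root peak. The higher root values of PSAH1 lay at an element nearer to ASPGB1, and its element inside the gene had 3.83 and 3.61-fold in root against 5.66 and 4.96-fold in shoot. In these 3 pairs 1 copy had an element lost in root and the other had none. PSBQ1 had 9.37 and 8.41-fold in root against 5.67 and 5.67-fold for PSBQ2, with 5.52 and 5.31-fold at the PSBQ2 element nearest the gene. The highest root values of PSBO2 lay at the element nearer to its neighbour, and its element inside the gene had 4.74 and 4.02-fold in root, close to 4.38 and 3.98-fold for PSBO1. Of the 3 LHCB4 genes for the minor antenna protein CP29, LHCB4.2 (AT3G08940) had 10.7 and 9.55-fold in shoot and 5.32 and 3.95-fold in root, and LHCB4.3 had the values given above. LHCB4.1 (AT5G01530) had an element at 1 end with 6.17 and 6.32-fold in shoot and 3.04 and 3.06-fold in root. Another at the other end had 6.05 and 6.2-fold in shoot and 6.08 and 6.73-fold in root, so only the first did not overlap between root and shoot.

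The remaining core and antenna genes had a peak in every library, at folds that were lower in root. PSAO (AT1G08380), a photosystem I subunit with membrane spans, had 10.7 and 10.1-fold in shoot, 8.24 and 7.75-fold in stem and 2.97 and 3.52-fold in root. PSAG (AT1G55670), which helps to bind the LHCA antenna, had 11.6 and 12.3-fold in shoot and 9.5 and 9.83-fold in root. PSBX (AT2G06520), a small photosystem II subunit, had 11.8 and 11.6-fold in shoot, 10.5 and 10.5-fold in stem and 7.42 and 6.47-fold in root. PSAF (AT1G31330), which docks plastocyanin, had 7.71 and 8.48-fold in shoot and 4.99 and 3.95-fold in root, PSAK (AT1G30380) 7.7 and 7.49-fold and 5.33 and 5.52-fold, and PSBP1 (AT1G06680), an extrinsic protein of the oxygen-evolving complex, 8.69 and 8.97-fold and 5.31 and 4.98-fold. LHCB6 (AT1G15820), for the minor antenna protein CP24, had 7.04 and 8.48-fold in shoot and 4.89 and 4.19-fold in root, and LHCA6 (AT1G19150) 7 and 6.17-fold and 4.92 and 4.78-fold. For these 8 genes the root and shoot libraries did not overlap.

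Of the 72 elements, 30 were carried by all 30 libraries, 41.7%, against 33% of the 35056 elements near genes. They were 17 of 37 at photosystem I and 13 of 35 at photosystem II genes. All 33 members had an element present in all 26 shoot libraries, and 25 had one present in all 30. The 8 without were PSAD2, PSAE1, PSAH2, PSAN, LHCA5, PSBS, PSBW and PSBY. As to position, 44 of the 72 elements lay within 200 bp of a gene end, of which 19 were inside and 25 outside the gene, 22 lay farther outside and 6 deeper inside. The gene table gives no strand, so start and end of a gene were not separated. For 19 elements another gene lay nearer, and 9 lay inside another gene, among them the PSAD2 element, so a change there may belong to the neighbour.

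**Figure D5:**
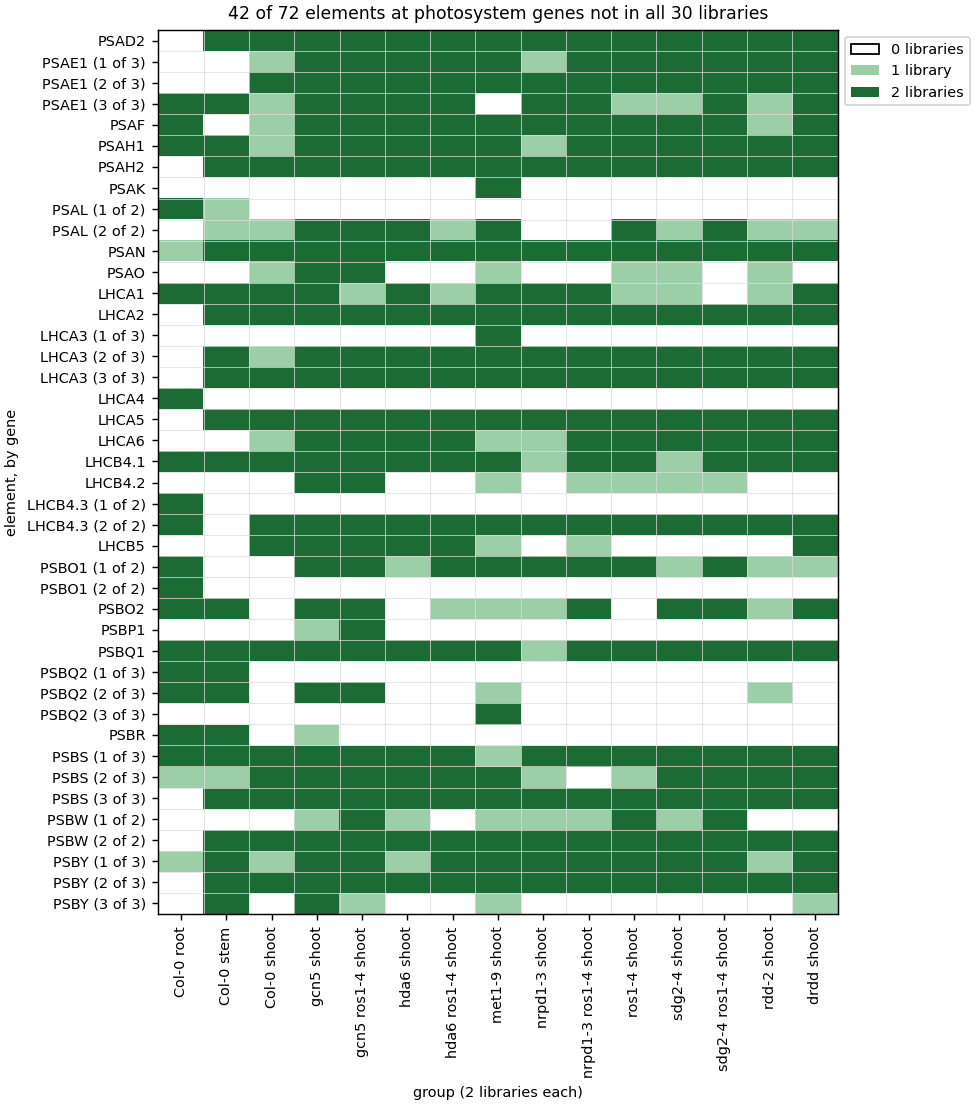
The 42 of 72 elements at photosystem genes that were not in all 30 libraries (rows, numbered within a gene) by group (columns, 2 libraries each). White stands for 0 libraries, light green for 1 and dark green for 2. Whole white cells in root at PSAD2, PSAH2 and LHCA5 stand beside dark cells in every other group.

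The 12 mutant genotypes were compared with Col-0 shoot in the same way. Each was set against the same 2 Col-0 shoot libraries, so the comparisons share them and are not independent. Over the 12 comparisons 13 elements at 12 genes were called, 59 elements never were, and the calls numbered 7 lost and 26 gained. No like total was made over all elements near genes, so these totals describe the members alone. The background share of each comparison is given in brackets. In the histone mutants, gcn5 lost 0 of 47 (background 0.288%) and gained 5 of 16 (52.8%), and gcn5 ros1-4 lost 0 (1.04%) and gained 6 (45.1%). The PSBP1 element gained in gcn5 ros1-4 was kept through that group alone, so its gain was fixed by the rule for keeping elements. For hda6 the counts were 0 lost (3.01%) and 0 gained (8.89%), and for hda6 ros1-4 they were 0 (0.97%) and 1 (29.7%). For sdg2-4 they were 1 lost (2.84%) and 1 gained (7.55%), and for sdg2-4 ros1-4 they were 2 (1.78%) and 3 (28.8%).

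The DNA methylation mutants were counted in the same way. The met1-9 shoots lost 0 of 47 (background 1.21%) and gained 4 of 16 (34.8%), nrpd1-3 lost 1 (2.67%) and gained 1 (8.17%), and nrpd1-3 ros1-4 lost 1 (2.59%) and gained 2 (11.6%). The PSAK, LHCA3 and PSBQ2 elements gained in met1-9 were kept through met1-9 alone. Their gain was thus fixed by the rule for keeping elements, and the met1-9 share is given as a description only. The demethylase mutants gave 1 lost (2.62%) and 2 gained (10.3%) in ros1-4, 1 lost (1.77%) and 0 gained (9.42%) in rdd-2, and 0 lost (2.23%) and 1 gained (9.62%) in drdd. The member share of gained elements was below the background in 10 of the 12 genotypes, the exceptions being nrpd1-3 ros1-4 and ros1-4. A count of 1 of 16 is 6.25%, which lies under even the lowest background, 7.55% in sdg2-4. Any genotype with 0 or 1 gain thus falls below, and all share the same 16 elements. The tally is therefore not read as a trait of the members. The counts rest on the reference: without Col-0 shoot replicate 2 the gained elements numbered 4 in nrpd1-3 and rdd-2 to 12 in gcn5 ros1-4, above the count with both libraries in each of the 12 genotypes. With lists cut to equal length 1 of 5 gained calls in gcn5, 1 of 4 in met1-9 and 1 of 2 lost calls in sdg2-4 ros1-4 remained, and none of the others did.

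The members changed in at least 3 genotypes were LHCB5, PSBO1, PSBO2, PSBQ2 and PSBW. The LHCB5 element at chr4:6410249-6410549, also absent from root and stem, was lost in nrpd1-3, ros1-4, sdg2-4, sdg2-4 ros1-4 and rdd-2. In the 12 mutant libraries that carried it, its fold ran from 2.56 to 4.36 with a median of 3.45, beside 3.16 and 3.23 in Col-0 shoot. The strong peak of LHCB5 stayed between 7.74 and 15.9-fold in all 24. The PSBO1 element at chr5:26570478-26570778, gained in 8 genotypes and in root, was carried by 20 of 24 mutant libraries at 1.94 to 3.48-fold with a median of 2.53. The PSBO2 element at chr3:18890393-18890693 was gained in 6 genotypes, root and stem, and was carried by 16 mutant libraries at 2.13 to 4.92-fold with a median of 2.94. The PSBW element at chr2:13018876-13019176 was gained in gcn5 ros1-4, ros1-4 and sdg2-4 ros1-4 and was carried by 12 mutant libraries at 1.77 to 3.36-fold with a median of 2.72. PSBQ2 changed at 2 elements: that at chr4:2670981-2671281, gained in gcn5 and gcn5 ros1-4 as well as root and stem, was carried by 6 mutant libraries at 1.9 to 3.67-fold with a median of 2.74, and the other was gained in met1-9. Beside PSBO1, the gains in met1-9 were 3 elements that both its libraries and no other library carried, at PSAK with 1.97 and 2.59-fold as the lower and higher value, at LHCA3 with 5.16 and 7.72-fold and at PSBQ2 with 3.64 and 4.7-fold. These 3 were kept as elements through met1-9 alone, so their gain was fixed by that rule.

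In each of the 24 mutant libraries the median highest fold over the 33 members was above that over all genes with a peak. Over the members it ran from 6.9 in hda6 replicate 2 to 12.4 in sdg2-4 ros1-4 replicate 1, and over all genes from 5.51 in rdd-2 replicate 2 to 8.74 in met1-9 replicate 1. In Col-0 shoot it was 7.7 and 8.48 against 5.92 and 6.02, in stem 5.66 and 6.27 against 5.02 and 5.07, and in root 5.33 and 5.15 against 5.25 and 5.21. The 2 hda6 replicates stood at 10.5 and 6.9. Of the member elements in either library of a group, both carried 83.9% in Col-0 shoot to 98.2% in sdg2-4 ros1-4. Over all elements of the genome this share ran from 74.3% in hda6 to 93% in gcn5.

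Whether the loss of ROS1 changed these elements was tested over 5 backgrounds, with 10 ros1-4 libraries (ros1-4, nrpd1-3 ros1-4, gcn5 ros1-4, hda6 ros1-4, sdg2-4 ros1-4) against 10 with ROS1 (Col-0, nrpd1-3, gcn5, hda6, sdg2-4). A two-sided exact permutation test within backgrounds, with Benjamini-Hochberg adjustment over 42611 elements, called 0 elements of the genome (0%), and 1179 had an unadjusted p under 0.05. None of the 72 member elements did. The smallest member p by this exact permutation test was 0.0833 for the PSBO1 element, which 10 ros1-4 and 6 ROS1 libraries carried, with an adjusted p of 1. The LHCA1 element at chr3:20338930-20339230 was carried by 5 ros1-4 and 9 ROS1 libraries (exact permutation p = 0.125, adjusted p = 1), and the PSBW element by 7 and 4 (exact permutation p = 0.396, adjusted p = 1). In Col-0 shoot 1 peak of 4.93 and 5.78-fold covered this LHCA1 element and a neighbouring one that all 30 libraries carried. Its loss in sdg2-4 ros1-4 was not called when a summit had to lie inside the element. The smallest p this design allows is 0.000257, and 220 fully lost elements would have been needed for a call, so a zero count says little about any 1 element. Of the 72 elements, 42 were carried by all 20 libraries and 51 by equal numbers of both kinds.

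Other photosynthesis genes were counted by list, the lists having been chosen with earlier results of these data known. Of 9 major antenna genes (LHCB1, LHCB2 and LHCB3), 7 had an element lost in root against shoot and 0 one gained. Of 18 chlorophyll synthesis genes, 3 had an element lost (CHLH, CHLD and PORA) and 1 gained. Of 14 genes of electron transport and the ATP synthase, 2 had an element lost (PETM and PGRL1B) and 0 gained. Beside these the members had 10 of 33 genes with an element lost and 7 with one gained, and all 27444 protein-coding genes 8.35% and 18.7%. The 27444 include genes with no shoot peak to lose: 18329 had a peak in both shoot libraries, as did all 33 members. The shares of genes with a loss are thus not on a like base.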

How the data were processed

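The 30 deposited lists of ATAC-seq peaks were made by the authors on TAIR10; the submitters' processing notes name FastQC, BWA, SAMtools, GATK and MACS2, with no versions or roles. The fold deposited by the authors is a linear ratio of pileup to local background, the −log10 p and −log10 q values deposited by the authors are as MACS2 writes them, and the score deposited by the authors is 10 times the −log10 q. Reads were not used here. Per the labels' protocols, libraries were amplified for 10 cycles.

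Summits of all lists, ranked within their list by −log10 q, set windows of 150 bp to either side, and a lower summit whose window overlapped a higher one was dropped. Of 48484 windows, 42611 held a peak in each library of some group and were kept as elements, and a library carries an element when a peak overlaps it by 1 bp or more. Gene ends came from the RefSeq table of assembly TAIR10.1, without strand, in which all 33 loci were found. With summits and genes at the same place, 68.1% of summits lay outside genes, more than at any shift tried, so the 2 coordinate systems were used together. No sequence was used, and the planned search for promoter motifs was not run. Elements near genes, carried in both reference libraries for losses or in neither for gains, gave the backgrounds. Those in neither were kept only through another group, the test group among them, so all gained shares rest on that selection.

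The ROS1 test was a two-sided exact permutation within 5 backgrounds with Benjamini-Hochberg adjustment at 0.05 over all elements, tested on simulated data. No other comparison has a p-value. Replicate numbers were not taken as pairs, since correlations between the replicate differences of 2 groups lay between -0.154 and 0.165 (105 pairs). No 2 lists were identical. Alternatives were the flank, the element width, summits only, a −log10 q of at least 5, lists cut to 17315 peaks, and each replicate left out. Named in full were members with an organ change, the 3 highest and 3 lowest folds in Col-0 shoot, those changed in at least 3 genotypes and the gene pairs; the other values in text were chosen after they were seen. The members and lists were chosen with earlier results of these data known. Python 3.11.15, numpy 2.4.6, pandas 2.3.3 and matplotlib 3.10.9 were used.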

Additional observations from a re-analysis of the deposited data

How the results depend on the processing

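Root against shoot gave 10 lost elements, and under each alternative run this count lay between 8, over the gene body alone, and 15, with lists of equal length. The following counts moved further, and the cause was not tested. Counting elements or peaks over the gene body alone, the number of lost elements went from 1 to 0 in nrpd1-3, from 1 to 0 in nrpd1-3 ros1-4, from 1 to 0 in ros1-4, from 1 to 0 in sdg2-4, from 2 to 0 in sdg2-4 ros1-4, from 1 to 0 in rdd-2, and that of gained elements went from 9 to 2 in root against shoot, from 5 to 0 in stem against shoot, from 6 to 2 in root against stem, from 5 to 1 in gcn5, from 6 to 2 in gcn5 ros1-4, from 1 to 0 in hda6 ros1-4, from 4 to 0 in met1-9, from 1 to 0 in nrpd1-3, from 2 to 0 in nrpd1-3 ros1-4, from 2 to 1 in ros1-4, from 1 to 0 in sdg2-4, from 3 to 1 in sdg2-4 ros1-4, from 1 to 0 in drdd, and that of members with no peak went from 4 to 9 in root against shoot, from 0 to 2 in stem against shoot, from 4 to 7 in root against stem. With a flank of 2 kb, the number of lost elements went from 3 to 5 in stem against shoot, and that of gained elements went from 9 to 14 in root against shoot, from 5 to 11 in gcn5, from 6 to 10 in gcn5 ros1-4, from 0 to 2 in hda6, from 1 to 4 in hda6 ros1-4, from 4 to 8 in met1-9, from 1 to 2 in nrpd1-3, from 2 to 5 in nrpd1-3 ros1-4, from 1 to 3 in sdg2-4, from 3 to 6 in sdg2-4 ros1-4, from 0 to 3 in rdd-2, from 1 to 3 in drdd, and that of members with no peak went from 4 to 2 in root against shoot, from 4 to 2 in root against stem. With a flank of 500 bp, the number of gained elements went from 5 to 2 in stem against shoot, and that of members with no peak went from 0 to 1 in stem against shoot. Requiring a summit inside the element, the number of lost elements went from 1 to 0 in nrpd1-3 ros1-4, from 2 to 1 in sdg2-4 ros1-4, and that of gained elements went from 5 to 3 in stem against shoot, from 0 to 1 in hda6, from 1 to 2 in hda6 ros1-4, from 0 to 1 in rdd-2. With lists of equal length, the number of lost elements went from 10 to 17 in root against stem, from 0 to 1 in gcn5 ros1-4, from 0 to 1 in hda6 ros1-4, from 1 to 0 in nrpd1-3, from 1 to 0 in nrpd1-3 ros1-4, from 1 to 0 in ros1-4, and that of gained elements went from 5 to 9 in stem against shoot, from 6 to 3 in root against stem, from 5 to 3 in gcn5, from 0 to 5 in hda6, from 1 to 5 in hda6 ros1-4, from 4 to 1 in met1-9, from 1 to 2 in nrpd1-3, from 2 to 1 in nrpd1-3 ros1-4, from 2 to 1 in ros1-4, from 1 to 2 in sdg2-4, from 0 to 5 in rdd-2, from 1 to 3 in drdd, and that of members with no peak went from 4 to 10 in root against shoot, from 4 to 10 in root against stem. With elements of 500 bp, the number of lost elements went from 1 to 0 in nrpd1-3 ros1-4, from 2 to 1 in sdg2-4 ros1-4, and that of gained elements went from 5 to 10 in gcn5, from 1 to 2 in drdd. With a −log10 q of at least 5, the number of gained elements went from 1 to 0 in hda6 ros1-4, from 2 to 1 in nrpd1-3 ros1-4, from 1 to 0 in drdd. Leaving out each replicate in turn, lost elements ranged from 3 to 5 in stem against shoot, from 0 to 1 in gcn5 ros1-4, from 0 to 1 in hda6, from 0 to 1 in hda6 ros1-4, from 0 to 2 in met1-9, from 1 to 3 in nrpd1-3, from 1 to 3 in nrpd1-3 ros1-4, from 1 to 2 in ros1-4, from 1 to 2 in sdg2-4, from 1 to 2 in rdd-2, from 0 to 1 in drdd, and gained elements from 5 to 9 in stem against shoot, from 5 to 11 in gcn5, from 6 to 12 in gcn5 ros1-4, from 0 to 5 in hda6, from 1 to 7 in hda6 ros1-4, from 4 to 9 in met1-9, from 2 to 4 in nrpd1-3, from 3 to 8 in nrpd1-3 ros1-4, from 2 to 7 in ros1-4, from 1 to 6 in sdg2-4, from 3 to 9 in sdg2-4 ros1-4, from 0 to 4 in rdd-2, from 2 to 7 in drdd. With the replicate number as a block in the ROS1 test, the smallest adjusted p at the members stayed 1, and its smallest unadjusted exact permutation p was 0.125. The smallest adjusted p was 1 in all 8 alternatives of this test. The lists hold no read counts, so a weak peak missing from a list cannot be told from one under the calling threshold of a shallower library. Leaving out 1 replicate of an arm leaves a single library there, which makes calls easier.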
